A study of Mus musculus with 6 samples.

Results

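Transfer RNA (tRNA) genes were scored for the chromatin protein Tex10 and for trimethylated lysine 4 of histone H3 (H3K4me3), a mark of active promoters, in primordial germ cell-like cells (PGCLCs) of the mouse. The members were the 386 tRNA genes that the RefSeq annotation of GRCm38.p6 places on chromosomes 1 to 19, of 445 tRNA features in the whole annotation. Each was scored over its body and 1 kb on each side, and a gene was called if an interval of the deposited list shared at least 1 bp with this window. The genes were grouped by amino acid (20 isotypes) and by genomic cluster, with neighbouring genes under 10 kb apart in the same cluster.

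PGCLCs are made in culture as a model of the early germ line, and these were untreated cells of strain 129Sv/J at day 2. The assay was chromatin immunoprecipitation followed by sequencing (ChIP-seq), with 2 samples each for an antibody against the HA tag, an antibody against H3K4me3 and input DNA. Per the series' design text, Tex10 carried the HA tag at its C-terminus in the cells. Each antibody has 1 list of intervals without scores for its 2 samples together, so no value below has a replicate error, no test compares samples, and the depth is unknown. The labels name no clone or parent line. H3K4me3 lay within 1 kb of a transcription start site (TSS) of the germ cell specification genes Prdm1, Prdm14 and Tfap2c. It did not at Dppa3 or Nanos3. These 3 of 5 genes (60%) are close to the 60.9% of all 21853 protein-coding genes, so the count cannot check the cell type.

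tRNA genes are transcribed by RNA polymerase III. Their promoter lies inside the transcribed sequence, as an A box and a B box that bind the factor TFIIIC, which places TFIIIB just upstream of the start. Transcription ends at a short run of T, and active tRNA genes are known to carry H3K4me3 on flanking nucleosomes. Tex10 is known as a subunit of the rixosome, a complex that acts in the processing of ribosomal RNA, and as a partner of pluripotency factors.

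The sequences below, from the RefSeq assembly of GRCm38.p6, show examples of tRNA genes under HA-Tex10 intervals, picked for a central position. The first set gives, whole, the HA-Tex10 intervals of at most 300 bp that were centred most closely on a tRNA gene, with the tRNA gene in capitals. That of n-TGgcc2 is chr8:111062478-111062720, and that of n-TPtgg8 is chr7:98815345-98815548, both on the plus strand. The body of n-TGgcc2 holds no match to the B box motif given below.
n-TGgcc2 (tRNA-Gly): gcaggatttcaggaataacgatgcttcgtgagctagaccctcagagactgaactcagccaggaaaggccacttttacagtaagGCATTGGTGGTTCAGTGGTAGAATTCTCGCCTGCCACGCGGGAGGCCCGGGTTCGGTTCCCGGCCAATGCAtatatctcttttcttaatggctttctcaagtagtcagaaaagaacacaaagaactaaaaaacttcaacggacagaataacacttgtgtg
n-TPtgg8 (tRNA-Pro): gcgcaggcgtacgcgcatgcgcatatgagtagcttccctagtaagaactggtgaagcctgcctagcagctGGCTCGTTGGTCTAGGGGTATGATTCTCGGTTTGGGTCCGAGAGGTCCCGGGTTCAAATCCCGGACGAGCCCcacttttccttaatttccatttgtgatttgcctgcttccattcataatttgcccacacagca

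The second set gives gene bodies, for 5 of the 6 other isotypes with at least 5 called genes each, of the gene with the most central HA-Tex10 interval. The interval met each body, but its centre lay outside the bodies of n-TDgtc9, n-TSaga5 and n-TLaag7. Over all 83 genes the centre lay a median of 253.5 bp from the middle of the body. Capitals mark a match to the B box, searched as GGTTCNA directly followed by NN and CC, where N is any base. All 5 bodies hold it, whereas 19 of the 83 genes with HA-Tex10 did not. A miss depends on the isotype, as this motif matched 0 of 15 Gln, 0 of 16 Met and 0 of 8 Trp genes. It matched 11 of 21 Ala genes. A miss therefore does not show that a gene lacks an internal promoter.
n-TVtac2 (chr19:12012266-12012338, plus strand): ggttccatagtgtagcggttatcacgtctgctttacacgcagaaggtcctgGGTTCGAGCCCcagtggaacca
n-TRccg1 (chr11:107012866-107012938, plus strand): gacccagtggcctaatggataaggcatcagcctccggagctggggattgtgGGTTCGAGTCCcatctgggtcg
n-TDgtc9 (chr11:69040984-69041055, plus strand): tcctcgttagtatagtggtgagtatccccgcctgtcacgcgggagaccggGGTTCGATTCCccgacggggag
n-TLaag7 (chr13:21170036-21170117, plus strand): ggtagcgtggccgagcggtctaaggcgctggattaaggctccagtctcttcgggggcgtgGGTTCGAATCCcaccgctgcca
n-TSaga5 (chr13:21919215-21919296, plus strand): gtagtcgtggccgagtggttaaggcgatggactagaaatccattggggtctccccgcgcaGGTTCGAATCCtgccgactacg

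The 386 bodies were 70 to 107 bp long with a median of 72 bp, and 313 of them (81.1%) held the B box on the sense strand. The motif occurred on either strand in 0.214% of all 72 bp tiles of chromosomes 1 to 19. A run of 4 T began and ended within 25 bp downstream in 319 genes (82.6%). Of the genes, 312 lay outside the annotated genes considered, 41 in noncoding genes, 28 in introns and 5 in exons of protein-coding genes (GENCODE M21).

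HA-Tex10 intervals lay at 83 of the 386 tRNA genes (21.5%, 95% Wilson interval 17.7 to 25.9%). Of all 2072 bp tiles of chromosomes 1 to 19, the size of a typical tRNA window, 0.362% met an HA-Tex10 interval. Windows of the same size at the 5′-most TSS of 20722 protein-coding genes did so in 8.47% of cases. H3K4me3 lay at 259 tRNA genes (67.1%, 62.3 to 71.6%), against 3.06% of tiles and 59.8% of coding TSS windows. The share of tRNA genes with HA-Tex10 was thus above those of tiles and of coding TSS, while the H3K4me3 share was closer to that of coding TSS. These are counts of features without replicates, and the differences were not tested.

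**Figure D1:**
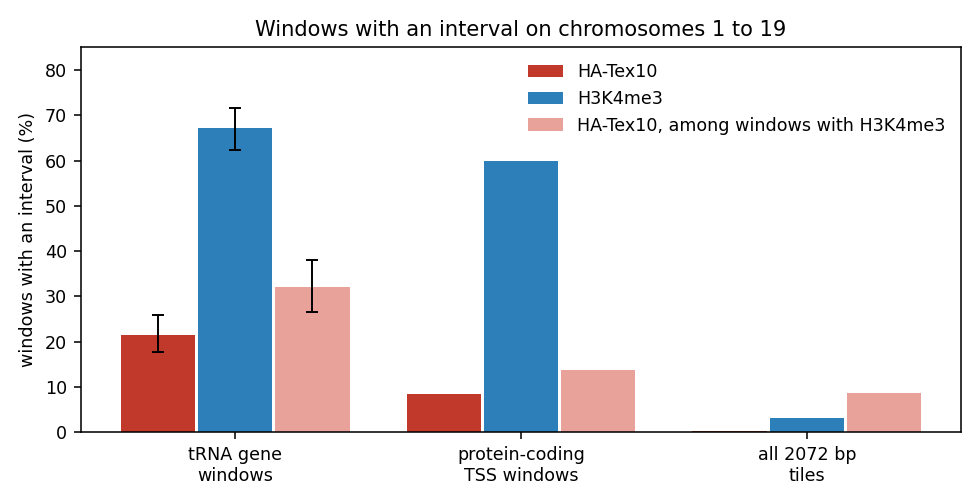
Share of windows with an interval, in percent, for tRNA genes, protein-coding TSS and all tiles of chromosomes 1 to 19. Error bars, on tRNA genes only, are 95% Wilson intervals for counting error, and the HA-Tex10 bar of tRNA genes stands at 21.5%, against 8.47% for coding TSS and 0.362% for tiles.

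The genes are not independent of each other. Only 49 distinct HA-Tex10 intervals stood behind the 83 called genes, and 27 of these intervals served 2 or more windows, 4 at most. When windows that overlap were merged, 44 of 253 loci (17.4%, 13.2 to 22.5%) had HA-Tex10 and 153 (60.5%) had H3K4me3.

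With windows of 1 kb on each side, each of the 83 genes with HA-Tex10 also had H3K4me3 somewhere in the window. The intervals themselves did not always meet. Of the 49 HA-Tex10 intervals in tRNA windows, 39 (79.6%, 66.4 to 88.5%) overlapped an H3K4me3 interval, against 69.3% of the 4129 in the whole list. HA-Tex10 was present at 83 of the 259 genes with H3K4me3 (32%, 26.7 to 38.0%) and at 0 of the 127 genes without it, which allows a share of up to 2.36% by counting error. At coding TSS windows the corresponding shares were 13.8% with H3K4me3 and 0.48% without. For tiles they were 8.74% and 0.0969%. Exceptions appeared under other settings. Genes with HA-Tex10 and no H3K4me3 numbered 20 of 29 on the body alone, 3 of 65 with 500 bp flanks and 6 of 78 by interval centre. They numbered 9 of 57 with intervals wider than their list's median and 1 of 81 with an overlap of at least 100 bp. Among marked genes, H3K4me3 covered a median of 1171 bp of the window where HA-Tex10 was present and 892.5 bp where it was not.

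Most tRNA genes, called or not, lay away from coding promoters, but the HA-Tex10 share was higher near them. Of the 386 tRNA genes, 52 lay within 2 kb of a coding TSS. Of these, 19 had HA-Tex10 (36.5%, 24.8 to 50.1%) and 49 had H3K4me3 (94.2%). The other 334 genes (86.5% of all) had HA-Tex10 in 64 cases (19.2%, 15.3 to 23.7%) and H3K4me3 in 210 (62.9%). The difference was not tested. Within the marked genes the shares were 38.8% of 49 near a coding TSS and 30.5% of 210 away from one. Of the 49 intervals, 10 came within 1 kb of a coding TSS. Called tRNA genes themselves lay within 1 kb of a TSS of, among others, Fcgr3, Ndufs7, Agbl5, Mettl26, Plekhg2 and Prmt5, the last an arginine methyltransferase gene needed in germ cells. The histone genes of chromosome 13 lie in the same region as many tRNA genes, and the 30 tRNA genes within 50 kb of a clustered histone gene had HA-Tex10 in 6 cases (20%).

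The 2 kinds of interval lay differently around the tRNA gene. Of the 83 genes with HA-Tex10, 29 (34.9%) had it over the body, 31 only upstream and 23 only downstream. Coding TSS windows with HA-Tex10 had it over the first 72 bp of the gene in 45.9% of cases. Of the 259 genes with H3K4me3, 111 (42.9%) had it over the body, 69 only upstream, 31 only downstream and 48 (18.5%) on both sides with the body itself left uncovered. Coding TSS with H3K4me3 had it over the first 72 bp of the gene in 86.4% of cases and on both sides of an uncovered stretch of this length in 2.61%.

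Where HA-Tex10 lay on the tRNA body, H3K4me3 mostly did not, but this was also so for marked tRNA genes in general. Of the 29 genes with HA-Tex10 on the body, 9 had H3K4me3 over the body too (31.0%, 17.3 to 49.2%). Another 13 had it on both sides only, 7 only upstream and 0 only downstream. Of all 259 marked tRNA genes, 42.9% (37.0 to 48.9%) had H3K4me3 over the body, so these Wilson intervals overlap. At the 805 coding genes with HA-Tex10 over the first 72 bp, 93.4% also had H3K4me3 there. With HA-Tex10 anywhere in the window, H3K4me3 lay over the body of 38 of 83 tRNA genes (45.8%) and over the first 72 bp of 91.5% of coding genes with both intervals. Counted by interval, 25 HA-Tex10 intervals touched a tRNA body, 21 of them overlapped an H3K4me3 interval somewhere, and 12 (48%, 30.0 to 66.5%) had their centre inside one. In the whole list of 4129 HA-Tex10 intervals on these chromosomes, 64.8% had their centre inside H3K4me3. The intervals touching a body were 337 bp wide at the median (quartiles 243 and 453 bp), against 232 bp (161 and 323 bp) in the whole list. All 49 intervals in tRNA windows had a median of 285 bp. A wider interval has more ways to touch a body or window, so these widths cannot show that intervals at tRNA genes are wider.

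Coverage was also read along the gene. Among the 259 marked tRNA genes, H3K4me3 covered 69.5% at 275 bp upstream of the gene start, 36.3% at 25 bp into the gene and 46.7% at 675 bp downstream. At the window edges it covered 40.2% (1000 bp upstream) and 36.7% (1000 bp downstream), so the value over the body was near the edge values. HA-Tex10 coverage was highest 75 to 25 bp upstream, at 11.6%, fell to 8.49% at 25 bp into the gene and was 9.65% at 75 bp. It was 3.86% at 1000 bp upstream and 1.16% at 1000 bp downstream. Around marked coding TSS, H3K4me3 was highest 225 bp downstream, at 89.5%, and HA-Tex10 at the start itself, at 5.24%. In the 210 marked tRNA genes away from coding TSS, H3K4me3 covered 69.0% at 275 bp upstream and 35.2% at 25 bp into the gene. It covered 35.7% at 1000 bp upstream and 33.8% at 1000 bp downstream.

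Reads are hardest to place uniquely in the gene body. Of the 32-base words starting at the gene start, 89.6% recurred elsewhere on the assembled chromosomes in the marked genes, against 9.27% at 25 bp upstream. Among the 49 marked genes with at most 50% recurring words in the body, H3K4me3 coverage was 73.5% at 400 bp upstream and 40.8% at the gene start. HA-Tex10 coverage in these 49 genes was 16.3% at 25 bp upstream, 10.2% at the gene start and 8.16% at 25 bp into the gene. Only 4 marked genes had bodies without recurring words, and the part of recurring words in these profiles was not tested. H3K4me3 lay over the body in 25 of these 49 genes (51.0%, 37.5 to 64.4%) and in 86 of the 210 others (41.0%, 34.5 to 47.7%).

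**Figure D2:**
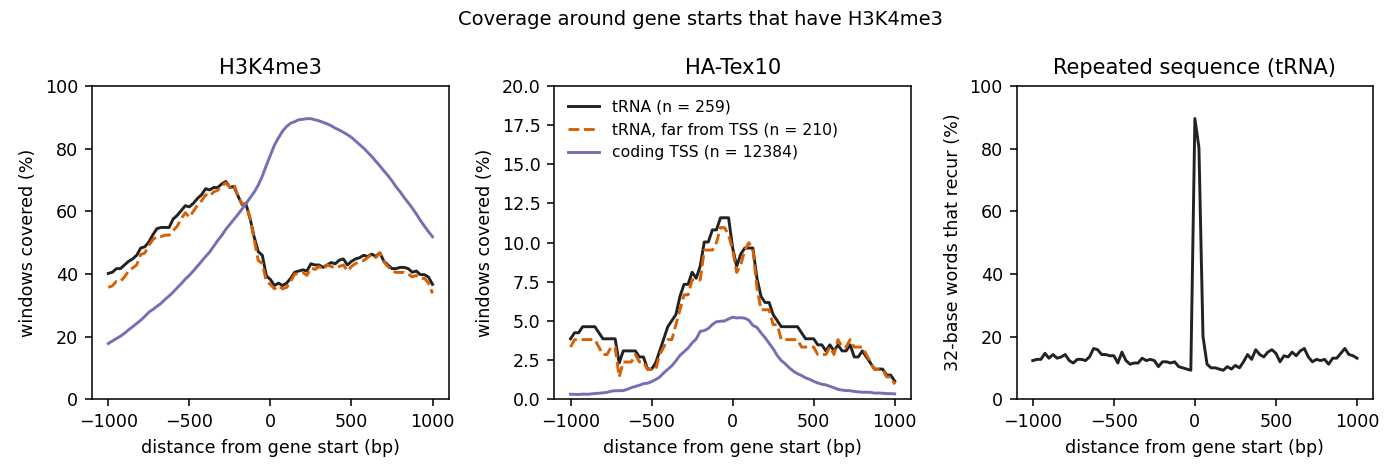
Percent of windows covered by H3K4me3 (left) and HA-Tex10 (middle), by distance in bp from the gene start and oriented by strand, for marked tRNA genes, marked tRNA genes over 2 kb from a coding TSS (far from TSS) and marked coding TSS. The right panel gives the percent of 32-base words that recur in the assembly, and H3K4me3 on tRNA genes falls from 69.5% at 275 bp upstream to 36.3% at 25 bp downstream. At the edges H3K4me3 is at 40.2% (1000 bp upstream) and 36.7% (1000 bp downstream). HA-Tex10 falls from 11.6% to 8.49% between 25 bp upstream and 25 bp downstream.

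Examples of HA-Tex10 on the body with H3K4me3 beside it follow. At n-TPtgg8 (tRNA-Pro, intergenic), the HA-Tex10 interval of 204 bp printed above was centred 4 bp from the middle of the body. An H3K4me3 interval of 460 bp reached into its upstream end, and another of 795 bp lay farther downstream. Its body is mostly unique, with 7.32% recurring words. At n-TYgta2 (tRNA-Tyr, chr3:19628782-19628870) an HA-Tex10 interval of 325 bp was centred 8 bp from the middle, and the H3K4me3 interval upstream ended where it began, at 19628654 against 19628656. This gene lies 105 bp from a TSS of the coding gene 1700064H15Rik.

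n-TRccg1, a tRNA-Arg gene on chromosome 11 whose body holds no recurring word, had an HA-Tex10 interval of 484 bp centred 9.5 bp from its middle and an H3K4me3 interval of 677 bp upstream only. n-TGgcc2, in an intron of the lectin gene Clec18a, likewise had H3K4me3 only upstream, over 754 bp. n-TTagt9 (tRNA-Thr, chr7:35234770-35234843) had an HA-Tex10 interval of 430 bp centred 7 bp away. Its H3K4me3 interval of 420 bp lay on the downstream side and another of 59 bp upstream.

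The 9 genes with both intervals on the body departed from this pattern. Among them, n-THgtg8 (tRNA-His), n-TPagg2 (tRNA-Pro) and n-TSaga5 (tRNA-Ser) had an HA-Tex10 interval wholly inside an H3K4me3 interval. At n-TVtac2 (tRNA-Val) the H3K4me3 interval began at the first base of the gene, within the HA-Tex10 interval. The HA-Tex10 interval of n-TGccc7 (tRNA-Gly) also lay inside H3K4me3, but the gene lies in an exon of Mettl26, a methyltransferase-like gene, 14 bp from its TSS, so the tRNA and the coding promoter cannot be told apart there. The widest HA-Tex10 intervals near tRNA genes did not lie on them. That of 732 bp was centred 1228.5 bp from n-TVaac2, and that of 716 bp was centred 1168 bp from n-TMcat9, a gene 631 bp from the TSS of the histone gene Hist1h4h. The next, of 694 bp, covered n-TPtgg4 and n-TVaac7 on chromosome 11 and reached the window of n-TLaag6.

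Some windows with wide H3K4me3 held no HA-Tex10. Among genes without HA-Tex10, the widest H3K4me3 intervals were those at n-TPtgg5 (3434 bp), n-TCgca51 (3295 bp), n-TEttc4 (3210 bp), n-TEctc12 (2994 bp) and n-TRcct1 (2851 bp). All 5 lay within 1 kb of a coding TSS, that of Rnase4, Lasp1, Wbp4, Acp6 and Fmc1 in turn, so coding promoters lay close by. The interval at n-TPtgg5 runs on to called neighbours and contains an HA-Tex10 interval outside the window of n-TPtgg5, while the other 4 met none of the HA-Tex10 intervals in tRNA windows.

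**Figure D3:**
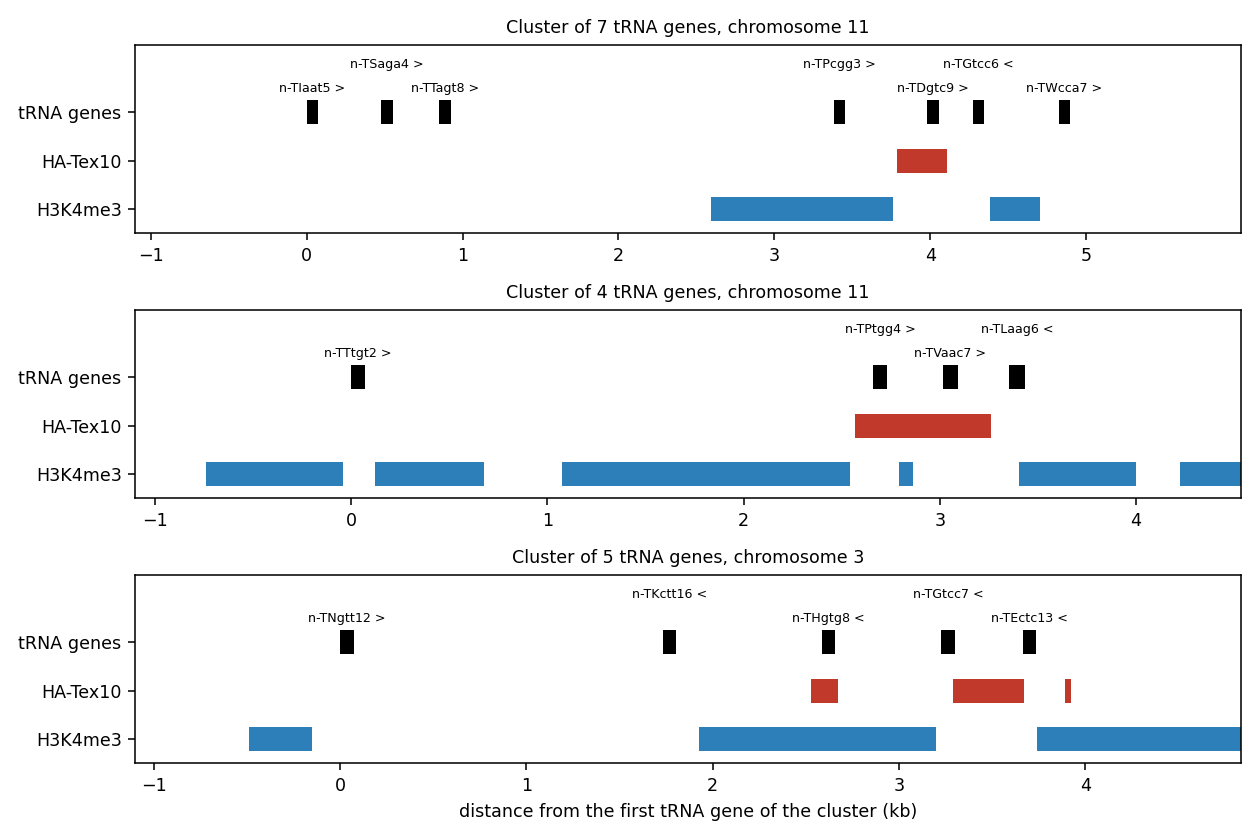
Maps of 3 tRNA clusters, with the distance in kb from the first tRNA gene, tRNA genes in black with their direction (> plus, < minus), HA-Tex10 intervals in red and H3K4me3 intervals in blue; intervals that reach no tRNA window are not drawn and those at the edge run on. The HA-Tex10 interval over n-TDgtc9 lies in a gap between H3K4me3 intervals, that over n-TPtgg4 and n-TVaac7 between intervals of 1464 and 594 bp with a further 70 bp interval inside it, and that at n-THgtg8 inside H3K4me3.

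All 20 isotypes had at least 1 gene with HA-Tex10, and 15 of them had it on a gene body. Val had the most called genes, 9 of 21, followed by Pro with 7 of 15 and Gly with 6 of 28. Ala (5 of 21), Arg (5 of 23), Asp (5 of 16), Leu (5 of 25) and Ser (5 of 22) followed. Ile (4 of 16), Met (4 of 16), Thr (4 of 17) and Tyr (4 of 10) had 4 each. Asn (3 of 13), Gln (3 of 15), Glu (3 of 20), Lys (3 of 25) and Trp (3 of 8) had 3 each, Phe 2 of 7, Cys 2 of 57 and His 1 of 11. The share ran from 3.51% for Cys to 46.7% for Pro, with a median of 23.3% over isotypes, close to the 21.5% of all genes.

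With so few genes per isotype these shares are mostly not separable. Of 190 pairs of isotypes, 5 had Wilson intervals that did not overlap, and all 5 set Cys below another isotype (Asp, Pro, Trp, Tyr and Val). H3K4me3 was present at 60% (Lys) to 100% (Phe, 7 of 7) of the genes of every isotype other than Cys. Among marked genes the share with HA-Tex10 ran from 14.3% for His (1 of 7) to 57.1% for Tyr (4 of 7), with Val at 9 of 16 and Pro at 7 of 13.

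The genes were also counted by isoacceptor, that is, by anticodon within an amino acid. Of 48 anticodons, 38 had a gene with HA-Tex10. Glu genes with the anticodon TTC had HA-Tex10 at 0 of 8 although all 8 had H3K4me3, which allows a share of up to 37.5%, and those with CTC at 3 of 12. Leu genes with CAA (4 genes) and TAG (3 genes) likewise had H3K4me3 at every gene and HA-Tex10 at none. So did Arg genes with CCT (4 genes) and Ser genes with CGA (3 genes). Groups this small set no useful limit on the share. These groups were picked out after their values were seen, and no difference between anticodons was tested.

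**Figure D4:**
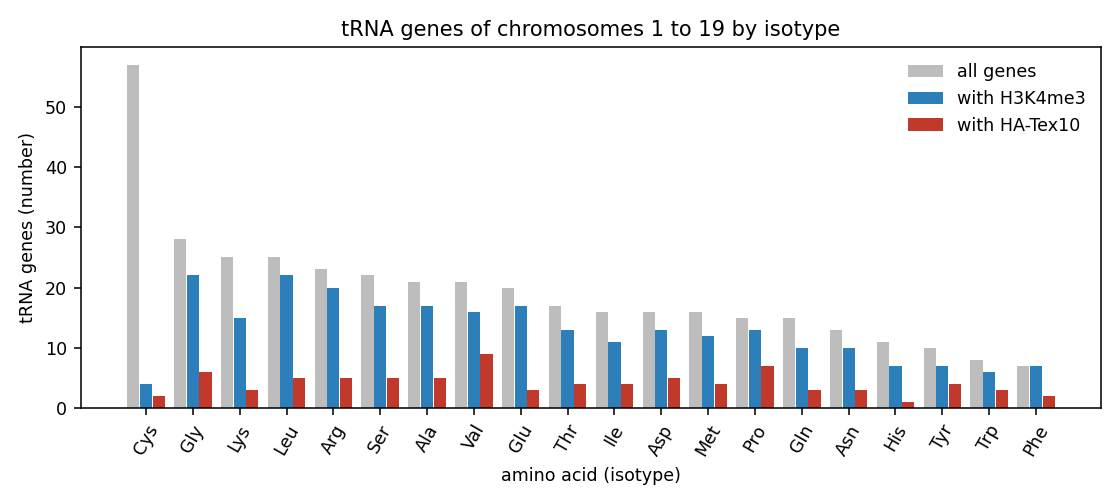
Number of tRNA genes per isotype (grey), with H3K4me3 (blue) and with HA-Tex10 (red), ordered by number of genes. Cys stands out with 57 genes, of which 4 had H3K4me3 and 2 HA-Tex10, whereas Phe had H3K4me3 at all 7 of its genes.

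Cys was the isotype with the most genes and, as shares of its genes, the lowest for both H3K4me3 (7.02%) and HA-Tex10. Of its 57 genes, 49 lay on chromosome 6 between 47978997 and 48363603, and 0 of these had either interval, which allows a share of up to 6.12% each. The nearest coding TSS was 25607 bp away. The other 8 Cys genes had H3K4me3 at 4 and HA-Tex10 at 2, n-TCgca54 and n-TCgca55 on chromosome 11. These neighbours had HA-Tex10 intervals of 523 bp each, inside 1 H3K4me3 interval of 1751 bp.

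Most of the unmarked Cys genes held the features read here. The B box was present in 45 of the 49 genes of chromosome 6 and the T run in 40. They held 22 distinct sequences, the commonest with 28 copies there. Relative to the marked gene n-TCgca54, the bodies on chromosome 6 had 0 to 9 base differences, with a median of 3. The marked gene and the first of the commonest kind read as follows, with the B box in capitals.
n-TCgca54 (chr11:97988923-97988994, minus strand, marked): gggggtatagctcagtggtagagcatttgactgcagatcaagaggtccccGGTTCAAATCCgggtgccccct
n-TCgca37 (chr6:48133937-48134008, plus strand, unmarked): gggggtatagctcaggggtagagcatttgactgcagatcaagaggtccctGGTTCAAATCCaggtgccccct

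The sequence of n-TCgca54 occurs in 4 genes, of which n-TCgca54 and n-TCgca55 had both intervals, while n-TCgca56 on chromosome 11 and n-TCgca57 on chromosome 6 had neither. Windows of the Cys genes on chromosome 6 had a median of 46.9% recurring words, against 6.37% for the other Cys genes. The part of this in the missing intervals was not tested.

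In the genome, 100 tRNA genes stood alone and 286 lay in 61 clusters of 2 or more. HA-Tex10 was present at 13 of the 100 lone genes (13%, 7.76 to 21.0%) and at 70 of the 286 clustered ones (24.5%, 19.9 to 29.8%). H3K4me3 was present at 54 and 205 of them. Among the marked genes the shares with HA-Tex10 were 24.1% of lone and 34.1% of clustered genes. Clustered genes can lie in each other's windows and share an interval, and the part of this in their higher count was not tested.

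Of all 161 clusters, lone genes included, 41 had HA-Tex10 and 108 had H3K4me3. On gene bodies alone 23 clusters had HA-Tex10, and with intervals wider than the list's median 27 did. Among the 61 clusters of 2 or more genes, 28 had HA-Tex10, which reached every gene in 9 and some genes in 19. H3K4me3 was present in 54 and reached every gene in 36. The 22 clusters of at least 5 genes held 189 genes, and 15 of them had HA-Tex10.

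The largest clusters differed. That on chromosome 6 (48244316 to 48317586) held 22 Cys genes and no interval of either kind. The cluster on chromosome 1 from 171064164 to 171081946 had 15 genes for Asp, Glu, Gly and Leu, with H3K4me3 at all 15 and HA-Tex10 at 3, from 1 interval. Its windows had a median of 92.2% recurring words. On chromosome 13, the cluster from 21907111 to 21940995 had H3K4me3 at 14 of 15 genes and HA-Tex10 at 4, from 2 intervals. Another chromosome 13 cluster, from 23425646 to 23453514, with 14 genes of 9 isotypes, had H3K4me3 at 12 and HA-Tex10 at 0, which allows a share of up to 21.4%. Of the clusters with 10 genes, that on chromosome 13 from 21234045 had H3K4me3 at 6 and HA-Tex10 at 0, and that on chromosome 6 from 48332840 had neither.

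Further clusters were named for having at least 3 called genes, so their high shares follow from the choice. In several of them 1 interval reached the windows of close neighbours, so the calls are not separate. On chromosome 11, all 4 genes from 69062320 to 69063566 (Ile, Ser, Thr and Trp) shared 1 HA-Tex10 interval, and 4 of 7 genes from 69037003 to 69041897 shared another. The latter, at 69040787 to 69041112, lay over n-TDgtc9 between H3K4me3 intervals that ended at 69040760 and began at 69041385. Also on chromosome 11, 3 of 4 genes from 48853619 to 48857055 shared the interval of 694 bp named above. A cluster of 7 genes of 7 isotypes on this chromosome, from 69110465 to 69125248, had H3K4me3 at all 7 and HA-Tex10 at 0, which allows a share of up to 42.9%. It was picked out after its values were seen.

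On chromosome 3, the 4 genes from 19627959 to 19629067 (Ala, Arg and 2 Tyr) shared 1 interval, and 4 of 5 genes from 96497781 to 96501518 were reached by 3 intervals. On chromosome 13, HA-Tex10 was present at 3 of 9 genes from 21160785, all 3 genes from 23412077 and 4 of 8 genes from 23517203. The cluster on chromosome 19 from 12002236 had it at 4 of 8 genes and that on chromosome 1 from 171033942 at 3 of 5.

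**Figure D5:**
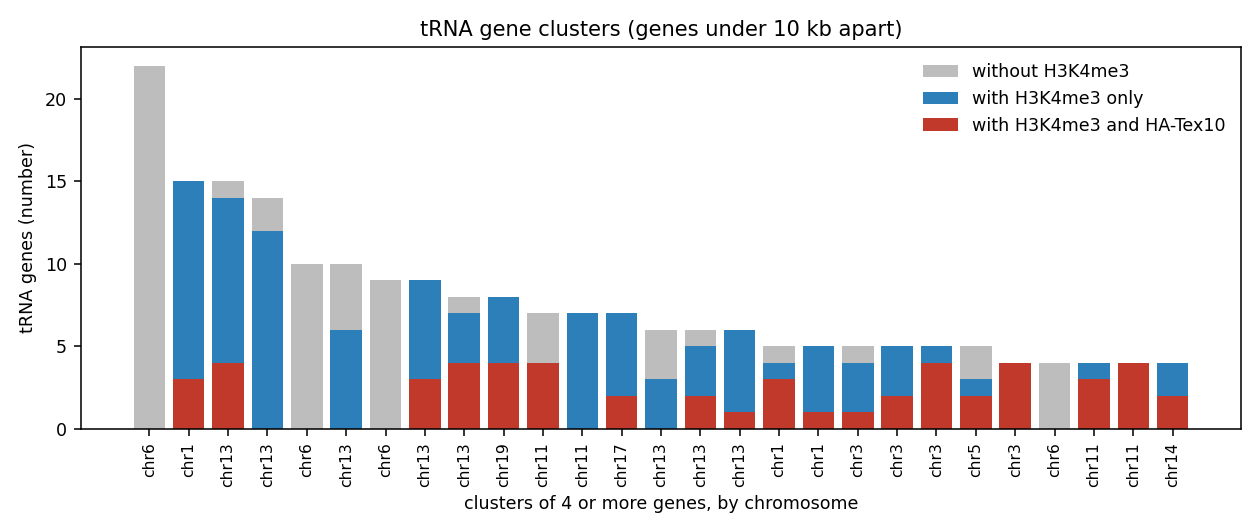
Clusters of 4 or more tRNA genes, with the number of genes on the vertical axis, split into genes without H3K4me3 (grey), with H3K4me3 only (blue) and with both intervals (red). The clusters of chromosome 6 are wholly grey, and the 15 genes of the largest chromosome 1 cluster all had H3K4me3, 3 of them with HA-Tex10.

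By chromosome, chromosome 13 held most tRNA genes, 105, with H3K4me3 at 86 and HA-Tex10 at 20. Chromosome 11 followed with HA-Tex10 at 15 of 47 genes and chromosome 3 with 11 of 40. Chromosomes 2, 6, 9, 15 and 16 had no HA-Tex10 at any of their 8, 53, 7, 4 and 2 tRNA genes in turn. On chromosome 6, 49 of the 53 are the Cys genes described above, and the other 4 chromosomes hold too few genes to set them apart.

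Copies of the same body sequence often differed in the intervals called in their windows, which include 1 kb flanks beyond the shared sequence. The 386 bodies held 211 distinct sequences, of which 52 occurred in 2 or more genes and together made up 227 genes. Of these 52, 28 had HA-Tex10 at some copies only, 4 at every copy and 20 at none. HA-Tex10 was present at 21.5% of all 386 genes, and how many mixed sequences this share alone would give was not worked out. H3K4me3 was present at every copy in 35, at some in 15 and at none in 2. With intervals on the body alone, 18 sequences had HA-Tex10 at some copies only. How the authors handled reads that match several copies is not given in the sources used here, and its part in these counts was not tested.

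The tRNA-Asp sequence printed above for n-TDgtc9 had the most copies of those that differed, 13. HA-Tex10 was present at 4 of them (n-TDgtc3, n-TDgtc4, n-TDgtc9 and n-TDgtc15) and H3K4me3 at 12. The tRNA-Glu sequence with anticodon CTC had 9 copies, all with H3K4me3 and 3 with HA-Tex10, and so did a tRNA-Asn sequence with anticodon GTT. A tRNA-Gly sequence with anticodon TCC had 7 copies, all with H3K4me3, and 4 with HA-Tex10.

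Counts of the B box and the T run had overlapping intervals in marked genes with and without HA-Tex10. The B box motif was matched in 64 of 83 genes with HA-Tex10 (77.1%, 67.0 to 84.8%), 149 of 176 with H3K4me3 alone (84.7%, 78.6 to 89.2%) and 100 of 127 with neither (78.7%). It matched no Gln, Met or Trp gene, and the isotypes in each class were not adjusted for. The T run was present in 73 of 83 (88.0%), 158 of 176 (89.8%) and 88 of 127 (69.3%). In the 78 genes with neither mark outside the Cys group of chromosome 6, the T run was present in 48 (61.5%, 50.4 to 71.6%) and the B box in 55 (70.5%). The median GC content of the body was 58.5%, 58.9% and 55.6% in the 3 classes. No recurring word was found in the bodies of 1, 3 and 23 of their genes.

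The protein-coding genes that serve tRNAs were read at their own promoters, as any TSS with an interval within 1 kb. All 50 genes of the 3 lists had H3K4me3, compared with 60.9% of 21853 protein-coding genes. HA-Tex10 was present at 12 of the 50 (24%, 14.3 to 37.4%), compared with 8.66% of all protein-coding genes and 13.9% of those with H3K4me3. With HA-Tex10 intervals wider than the list's median the count was 5 of 50. The share of all protein-coding genes was not counted under this setting, so 5 of 50 cannot be set beside 8.66% or 13.9%. The lists had similar shares, with 5 of 20 aminoacyl-tRNA synthetases, 2 of 9 subunits of TFIIIB and TFIIIC, and 5 of 21 genes of tRNA processing. These lists were chosen with results of these data known, and their counts were not tested against other genes.

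The synthetases, which load amino acids onto tRNAs, with HA-Tex10 were Farsb (Phe), Kars (Lys), Mars (Met), Sars (Ser) and Tars (Thr). The intervals of Farsb (260 bp) and Mars (391 bp) contained a TSS, those of Sars (130 bp) and Tars (156 bp) lay 29 bp from one and that of Kars (355 bp) 173 bp. The TFIIIC subunit genes were Gtf3c2, with a TSS inside its 260 bp interval, and Gtf3c6, 344 bp away. For tRNA processing they were Pop1 and Pop7, subunits of the RNase P that trims the 5′ end, Tsen34 and Tsen54 of the tRNA splicing endonuclease, and the RNA kinase gene Clp1. The Tsen54 interval lay farthest, 730 bp from a TSS. No HA-Tex10 interval was present at Brf1, Bdp1 or Tbp, which encode subunits of TFIIIB, at the large TFIIIC subunit gene Gtf3c1, at the polymerase III repressor gene Maf1 or at Ssb, which encodes the La protein.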

How the data were processed

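ChIP-seq intervals of 2 HA-Tex10 and 2 H3K4me3 samples were used, 1 deposited list per antibody. The authors' lists hold interval positions only, without a score. Per the labels' protocols, chromatin was prepared with an enzymatic kit. The submitters' processing notes name Bowtie2 2.3.4.3, SAMtools 1.9, MACS2 2.1.2, HOMER and the build mm10, which has the same chromosomes as GRCm38. The thresholds, the use of input and whether replicates were called apart or pooled are not given in the sources used here. Another list, whose names repeat those of the HA-Tex10 list, was not used. The reference is C57BL/6J and the cells are 129Sv/J.

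Members, gene lists and alternatives were chosen with earlier results of these data known. tRNA features came from RefSeq, coding TSS and gene bodies from GENCODE M21. Overlap needed 1 bp. Windows were compared with 2072 bp tiles and with coding TSS windows, as counts without tests. Wilson 95% intervals cover counting error only, and the limit for a count of 0 was 3 counts. This limit is an approximation and is too high for groups of few genes. Recurring words were 32-base words found more than once, on either strand, on chromosomes 1 to 19, X and Y. Genes named were those with HA-Tex10 on the body nearest to an interval centre (at most 25, of which some are described), the 5 with the widest HA-Tex10 and the 5 with the widest H3K4me3 without HA-Tex10. List genes with HA-Tex10 at a TSS were named too. The example sequence of 1 further isotype is not reported here. Clusters named were the 5 largest, with a tie at 10 genes, and those with at least 3 called genes. Isoacceptors, families of identical copies and further gene examples were singled out after their values were seen. Python 3.11.15, numpy 2.4.6, pandas 2.3.3 and scipy 1.17.1 were used, and the overlap functions were tested on simulated data.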

Additional observations from a re-analysis of the deposited data

How the results depend on the processing

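No paired analysis was possible because the lists, 1 per antibody, carry no replicate numbers, and no replicate could be left out. The depth is unknown, so for genes with no interval it can only be said that none was detected in these lists. No gene was annotated as a pseudogene or of undetermined isotype, so the alternative without such genes was not run. Of 60 values under alternatives, 37 stayed within the counting interval of the main value, or within 1.5 times a main count, and 23 moved. Of the 60, 17 came from alternatives chosen after seeing the data.

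With the gene body only, HA-Tex10 was at 7.51% and H3K4me3 at 28.8% of genes, and HA-Tex10 at 8.11% of those with H3K4me3 on the body. A 500 bp flank gave 16.8% with HA-Tex10, and 25.2% of the genes with H3K4me3. A 2500 bp flank gave 27.2% and 38.3%. Intervals wider than their list's median gave 14.8% for HA-Tex10, 49.0% for H3K4me3 and 25.4% for HA-Tex10 among genes with H3K4me3. Merged windows gave 17.4% and 60.5%. Distinct sequences, each called if any of its copies was, gave 27% for HA-Tex10, or 42.5% among those with H3K4me3. Under this rule a sequence with more copies has more ways to be called. The H3K4me3 share was 60.4% without mostly repeated intervals, 60.9% by interval centre, 77.5% without Cys and 61.6% without chromosome 13. Clusters with HA-Tex10 fell from 41 to 23 on bodies only and 27 with wide intervals. Sequences with HA-Tex10 at some copies only fell from 28 to 18 on bodies, and tRNA-related coding genes with HA-Tex10 from 12 to 5 with wide intervals. H3K4me3 lay over the body in 51.0% of marked genes with at most 50% recurring words. The cause of each move was not tested, beyond the fewer bases or intervals counted and the rule for distinct sequences.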

Other observations

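The 17 tRNA genes of chromosome X, which are not among the members, had HA-Tex10 at 0, which allows a share of up to 17.6%, and H3K4me3 at 1. The chromosome held 92 of the 4331 HA-Tex10 intervals.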
